A study of Mus musculus with 8 samples.

Results

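The genes that make, receive and tune the Wnt signal in the embryonic heart were collected by symbol. They comprise the Wnt ligands, the Frizzled receptors, the co-receptors Lrp5 and Lrp6, the Sfrp and Dkk families, the R-spondins with their Lgr receptors, the ligases Rnf43 and Znrf3, and the downstream genes Lef1 and Axin2. Of 23846 entries in the deposited table, 50 belonged to this group. RNA-seq was performed on whole hearts at E11.5, with 4 libraries of cardiomyocyte-specific Ogt knockout (cKO) and 4 of littermate control hearts. Ogt encodes the enzyme that attaches O-GlcNAc to nuclear and cytoplasmic proteins. The cKO embryos carried a floxed Ogt allele on their X chromosome, with Cre expressed from the cardiac Troponin T promoter (TnT-Cre), which acts in cardiomyocytes and leaves Ogt intact in the other cells of the heart. The genotype of the sequenced controls is not stated. The paper crossed Ogt f/f females with TnT-Cre males, so every male carries the floxed allele, with or without Cre. Control libraries had male levels of Xist (at most 0.0521 FPKM) and of Y-linked Ddx3y (at least 11.5 FPKM). On that cross they would be floxed without Cre, and effects of Cre itself cannot be told apart from the knockout. The number of hearts in each library is not stated in the sources used here, so the spread between libraries may be partly technical.

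Wnt proteins are lipid-modified secreted ligands. They bind Frizzled receptors, either with Lrp5 or Lrp6, which stabilizes β-catenin and activates Lef and Tcf factors, or with other partners, which act on cell polarity and movement without β-catenin. Sfrp proteins trap ligands outside the cell, Dkk1 and its relatives block the co-receptors, and R-spondins acting through Lgr receptors keep Rnf43 and Znrf3 from clearing Frizzled receptors off the surface. In the developing heart the β-catenin branch acts on progenitors and valve cushions, whereas Wnt5a and Wnt11 are known for β-catenin-independent signaling in the outflow tract and myocardium.

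Of these genes, 3 passed the test, and all were higher in cKO hearts: Fzd9, Dkk3 and Wnt5b. The sequences just upstream of Fzd9 and Wnt5b are shown so that the changed genes can be seen next to their promoters. They are the 250 bases before a RefSeq transcription start in mm10 (GRCm38.p6), written 5′ to 3′ along the gene, which lies on the minus strand in both cases. Capitals mark CTTTGAT, a short form of the site that Lef and Tcf factors prefer. The first line belongs to Fzd9 (chr5:135251048-135251297). The second belongs to the outermost start of Wnt5b (chr6:119544348-119544597), and the third to the innermost of its starts (chr6:119449387-119449636).
Fzd9: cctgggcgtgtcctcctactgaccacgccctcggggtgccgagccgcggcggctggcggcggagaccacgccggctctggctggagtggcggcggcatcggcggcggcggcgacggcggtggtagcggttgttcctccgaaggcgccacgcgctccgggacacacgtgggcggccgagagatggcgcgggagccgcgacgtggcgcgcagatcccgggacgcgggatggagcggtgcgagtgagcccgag
Wnt5b outermost start: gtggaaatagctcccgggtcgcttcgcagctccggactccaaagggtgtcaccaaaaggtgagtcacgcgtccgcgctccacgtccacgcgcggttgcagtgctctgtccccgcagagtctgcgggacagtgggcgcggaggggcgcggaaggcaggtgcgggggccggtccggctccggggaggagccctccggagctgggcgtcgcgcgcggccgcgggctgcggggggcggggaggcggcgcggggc
Wnt5b innermost start: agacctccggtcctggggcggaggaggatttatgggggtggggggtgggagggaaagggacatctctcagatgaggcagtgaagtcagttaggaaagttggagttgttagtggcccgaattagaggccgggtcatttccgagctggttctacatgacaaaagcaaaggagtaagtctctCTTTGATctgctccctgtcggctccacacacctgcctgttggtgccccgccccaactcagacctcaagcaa
The Fzd9 sequence held neither CTTTGAT nor CTTTGAA on either strand and had a GC content of 76.4%, with 42 CpG. Among 32851 such windows, 3.04% had a GC content at or above that of Fzd9, and the median was 52.4%. CTTTGAT stood 71 bases before the innermost start of Wnt5b. Windows were found for 32 of the 50 genes (39 windows), and 3 of these windows (7.69%) held one of the 2 motifs, namely those of Wnt5b, Wnt11 and Dkk1, against 7.48% of all windows. The genes therefore held these letters about as often as promoters in general. A match describes the sequence only.

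The libraries were first compared with each other. Ogt itself ranged from 37.5 to 46.2 FPKM (fragment numbers scaled to transcript length and library size) in control libraries and from 20.1 to 24.7 FPKM in cKO libraries, so every library matched its label. Depth relative to control library 1 was estimated at 1.04 to 1.25 in the other 7 libraries. Control library 2 and cKO library 3 stood apart from the other 6 in Rgs5 and Isl1. These belong to a list of 7 outflow and second heart field markers. The summed list was 63.4 FPKM in control library 2 but also 62.9 FPKM in control library 3, where Hand2 was highest (47.9 FPKM). It was 70.5 FPKM in cKO library 3 and 47.9 to 50.5 FPKM in the other cKO libraries. Rgs5, a marker of pericytes that also labels the outflow region, was 5.45 FPKM in control library 2 and 7.80 in cKO library 3, and 0.584 to 1.18 in the others. Isl1, a marker of second heart field progenitors, was 1.84 and 3.08 FPKM in these libraries and 0.457 to 1.08 elsewhere. The liver gene Afp was 35.2 FPKM in cKO library 3 alone and 0.0118 to 0.15 FPKM in every other library. Over all tested genes, 15.9% were called higher in cKO hearts and 14.9% lower, at an adjusted p under 0.05. The 12 cardiomyocyte markers included no called gene, and their median log2 difference was -0.01. Of 10 epicardial markers 5 were higher in cKO hearts and none lower, with a summed level of 189 to 207 FPKM in control and 236 to 273 FPKM in cKO libraries. Of 10 endothelial and endocardial markers 5 were lower and none higher, with sums of 314 to 350 and 290 to 303 FPKM. Of 10 markers of cushion mesenchyme and fibroblasts 1 was higher and none lower (median log2 difference 0.24), with sums of 889 to 1058 and 884 to 1060 FPKM. The libraries also differed in blood content. The summed blood markers ran from 17413 FPKM in control library 1 to 68754 FPKM in control library 4 and from 36066 to 53506 FPKM in cKO libraries, and none of the 9 entries passed, although all had a difference above 0 (median 0.38). The 3 calls among the Wnt genes were kept after haemoglobin genes were removed. In whole hearts, a change in the number of cells of a type cannot be told apart from a change in RNA per cell. The part of these cell type differences in the Wnt gene levels was not tested.

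Among the 50 genes, 30 had a mean of at least 1 FPKM and were tested within a fit over all 12629 entries at or above this mean, and 20 were below this level. Of the 30 tested genes, 3 (10%) were higher in cKO hearts at an adjusted p under 0.05 (limma on log2(FPKM + 0.5), Benjamini-Hochberg adjustment over all genes tested). None was lower, and none had an unadjusted p under 0.05 in the lower direction. In the whole comparison 30.7% of tested genes were called, 15.9% higher and 14.9% lower, so calls among the Wnt genes were fewer than in the background, a difference that was not tested. Of the other 27 tested genes, 2 had an unadjusted p under 0.05, namely Wnt11 and Sfrp1, both in the higher direction. In 4 of the 30 genes (Fzd9, Dkk3, Wnt5b and Wnt11) there was no overlap between cKO and control libraries, all 4 with cKO above control, against 32.8% of all tested genes in either direction and 16.5% with cKO above control. The log2 difference was above 0 in 21 genes and below 0 in 9. Its median was 0.07, beside 0.02 over all tested genes. The median standard error was 0.09 for these genes and 0.07 for all. FPKM is scaled to transcript length, so levels can be set side by side between genes. Sfrp1 (53.5 FPKM on average over the 8 libraries) and Dkk3 (41.4 FPKM) were the most abundant, followed by Fzd2 (23.4 FPKM) and Wnt5a (17.9 FPKM).

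**Figure D1:**
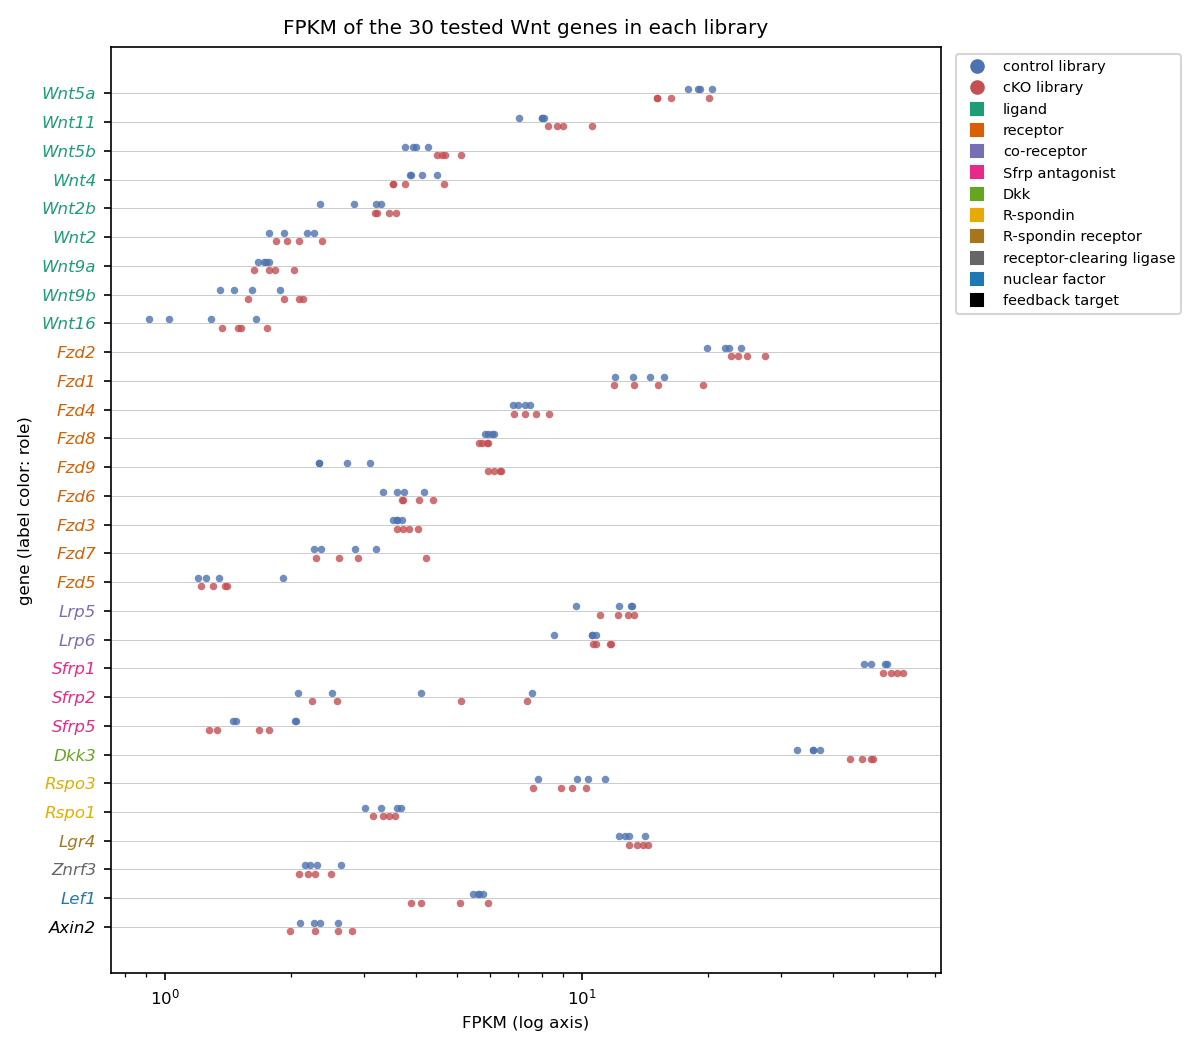
FPKM (log axis) of the 30 tested Wnt pathway genes, 1 point per library, with control libraries in blue and cKO libraries in red and gene names colored by role. Levels ran from Wnt16 near 1 FPKM to Sfrp1 above 47 FPKM, and the groups were widely separated for Fzd9 (2.33 to 3.09 against 5.93 to 6.38 FPKM).

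**Figure D2:**
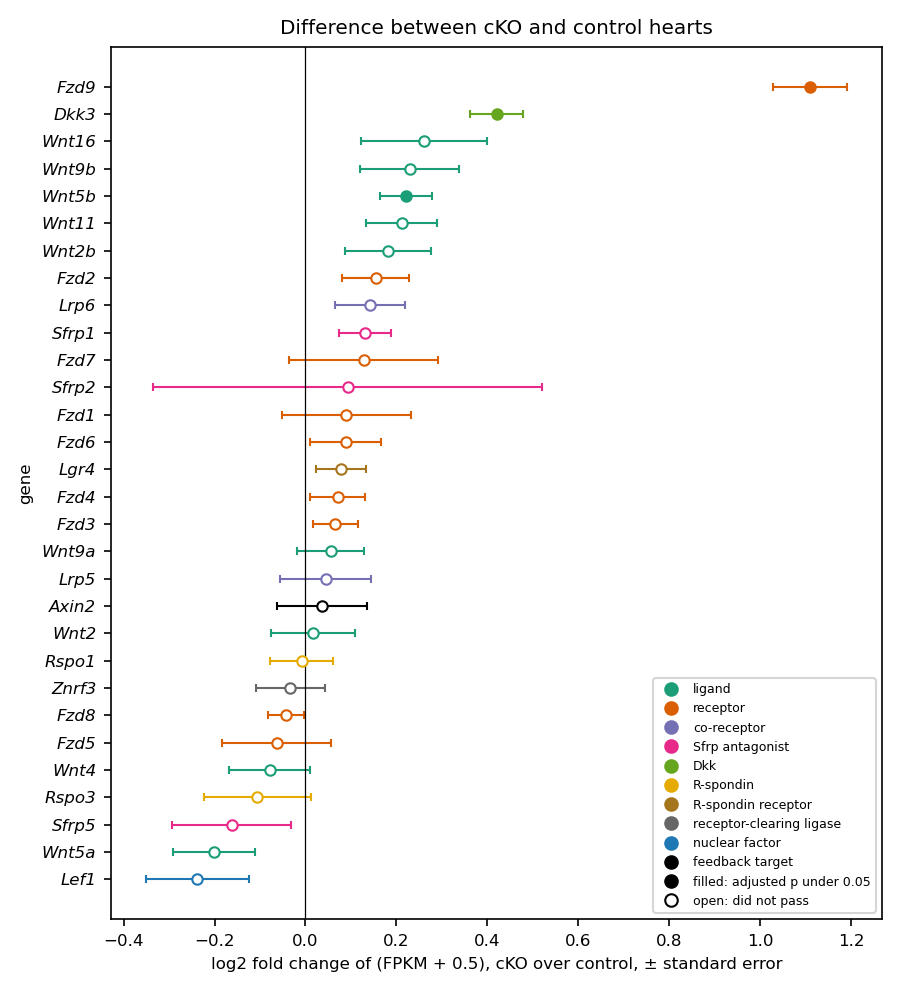
Log2 fold change of FPKM + 0.5 between cKO and control hearts for the 30 tested genes, with standard errors from limma; filled points passed an adjusted p under 0.05. Fzd9 stood at 1.11 and Dkk3 at 0.42, and the 27 genes that did not pass lay within 0.26 of 0.

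Fzd9, a Frizzled receptor, was 2.73, 2.34, 3.09 and 2.33 FPKM in control libraries 1 to 4, and 5.93, 6.38, 6.36 and 6.15 FPKM in cKO libraries 1 to 4. Every cKO library was well above every control library, and the cKO values were close to each other. The mean rose from 2.62 ± 0.366 to 6.21 ± 0.212 FPKM (SD, n = 4 each), a log2 fold change of 1.11 (standard error, SE, 0.08; limma adjusted p = 8.09e-05). Fzd9 was the 1 Wnt gene that changed over 2-fold, and it ranked 42 by fold change among the 2002 genes called higher in the whole comparison, of which 57 changed over 2-fold. The difference did not rest on the libraries that stood apart, since it was 1.05 (adjusted p = 0.00214 from limma) without control library 2 and cKO library 3. It was 1.09 within each of the groups of libraries that carry the same label prefix, and passed in one of them (adjusted p = 0.0115 and 0.0559 from limma). The gene lies at chr5:135248938-135251047 on the minus strand and has 1 exon. Of its neighbors on one side, Tbl2 was lower in cKO hearts (log2 fold change -0.18, adjusted p = 0.0419 from limma), and Bcl7b (-0.10) and Baz1b (0.07) did not pass. Fkbp6, on the other side, was 0.0216 to 0.123 FPKM in control and 0.110 to 0.206 FPKM in cKO libraries and was not tested.

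The other Frizzled receptors did not pass. Fzd2, the most abundant, was 22.0, 22.5, 24.0 and 19.9 FPKM in control libraries and 22.7, 23.7, 27.5 and 24.9 FPKM in cKO libraries, with overlapping groups (log2 fold change 0.15, SE 0.07, limma adjusted p = 0.146). Fzd1 was 13.2, 15.7, 14.6 and 12.0 FPKM in control libraries and 11.9, 13.3, 19.5 and 15.2 FPKM in cKO libraries. Its highest value in each group came from the library that stood apart, and the log2 difference was 0.09 (adjusted p = 0.666 from limma). Fzd4, a receptor known for vascular development, was 6.83, 7.48, 7.01 and 7.28 FPKM in control libraries and 7.27, 6.87, 8.30 and 7.73 FPKM in cKO libraries (0.07, adjusted p = 0.415 from limma). Fzd8 was the most even of the tested genes, at 5.93, 5.85, 6.15 and 6.06 FPKM in control libraries and 5.91, 5.66, 5.93 and 5.75 FPKM in cKO libraries. Its log2 difference of -0.04 had the smallest standard error of the group (0.04). Fzd3, Fzd5, Fzd6 and Fzd7 had means between 1.38 and 3.84 FPKM and log2 differences between -0.06 and 0.13. Fzd7 was 4.22 FPKM in cKO library 3 and 2.30 to 2.89 FPKM in the other cKO libraries. Fzd10 stayed under the filter at 0.295 to 0.624 FPKM.

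The receptor repertoire was also described as shares of the summed Frizzled level. Fzd9 made up 4.39, 3.50, 4.71 and 3.92% of it in control libraries and 9.08, 9.40, 7.74 and 8.58% in cKO libraries, again without overlap. The mean share was 4.13 ± 0.532% in control and 8.70 ± 0.721% in cKO hearts (SD, n = 4 each). By mean level, Fzd9 was the eighth highest of 10 Frizzled genes in control hearts and the fourth highest in cKO hearts, where its 5.93 to 6.38 FPKM lay beside the 5.66 to 5.93 FPKM of Fzd8. Fzd2 kept a share of 34.8 ± 1.44% in control and 34.4 ± 0.695% in cKO hearts. Fzd1 took 21.8 ± 1.37% and 20.7 ± 2.32%. A share falls when another gene rises, and Fzd8 went from 9.46% to 8.16% of the sum at nearly level FPKM.

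**Figure D3:**
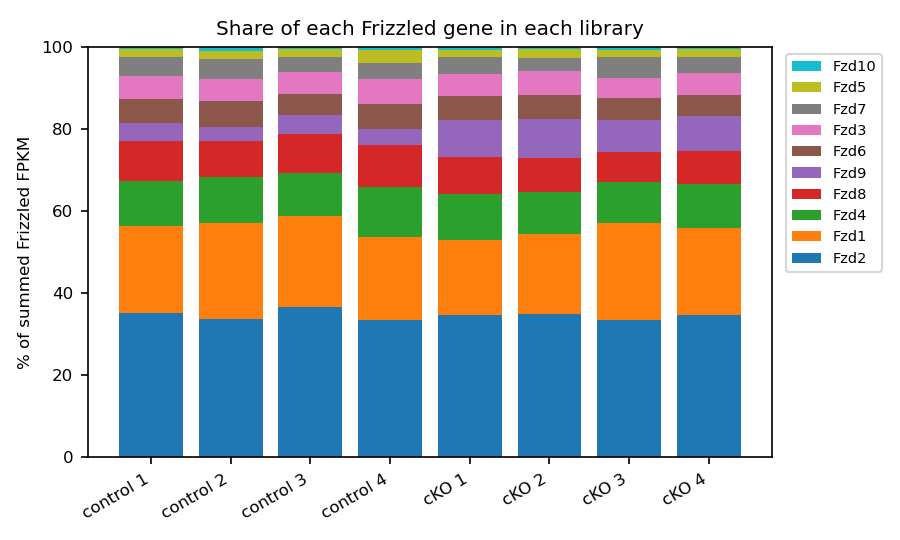
Stacked bars of each Frizzled gene as a percent of the summed Frizzled FPKM in the 4 control and 4 cKO libraries. The Fzd9 segment was 3.50 to 4.71% in control libraries and 7.74 to 9.40% in cKO libraries, and Fzd2 was the largest segment in all 8.

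Among 19 ligands, 9 were tested and 1 was higher. Wnt5b, a ligand known mainly for β-catenin-independent signaling, was 3.997, 4.26, 3.93 and 3.75 FPKM in control libraries and 5.12, 4.60, 4.70 and 4.48 FPKM in cKO libraries. All cKO libraries were above all control libraries, though by a narrow margin. The mean rose from 3.98 ± 0.209 to 4.73 ± 0.278 FPKM (SD, n = 4 each; log2 fold change 0.22, SE 0.06, limma adjusted p = 0.0191). The call was lost without control library 2 and cKO library 3 (0.25, adjusted p = 0.0542 from limma) and within either label prefix (adjusted p = 0.0739 and 0.13), with the difference in the same direction. The gene lies at chr6:119432531-119544347 on the minus strand. Fbxl14 lies inside it on the opposite strand and did not pass (log2 fold change 0.08, adjusted p = 0.465 from limma); the kit was stranded, but whether counting used strand is not given in the sources used here.

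Wnt5a, the most abundant ligand, was 18.9, 20.5, 17.9 and 19.2 FPKM in control libraries and 15.1, 15.1, 20.1 and 16.3 FPKM in cKO libraries. Libraries 1, 2 and 4 of the cKO group were below all controls, and cKO library 3 lay among them. The means were 19.1 ± 1.07 and 16.7 ± 2.36 FPKM (SD, n = 4 each), and the difference of -0.20 did not pass (SE 0.09, limma adjusted p = 0.126). Without cKO library 3 it was -0.29 and passed (SE 0.06, limma adjusted p = 0.0105), and without control library 2 as well it was -0.26 (adjusted p = 0.0307). Wnt11 was 8.01, 8.03, 8.09 and 7.04 FPKM in control libraries and 8.30, 8.69, 10.5 and 8.97 FPKM in cKO libraries. The groups did not overlap, but the difference of 0.21 missed the threshold (SE 0.08, limma adjusted p = 0.0682).

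The ligands were also set against their own sum in each library. Wnt5a made up 42.3, 43.1, 40.8 and 44.8% of the summed ligand level in control libraries and 35.5, 35.1, 39.0 and 36.3% in cKO libraries. On this scale cKO library 3 was below all control libraries as well. The mean share of Wnt5a was 42.7 ± 1.67% in control and 36.5 ± 1.75% in cKO hearts, that of Wnt11 was 17.4 ± 0.902% and 20.01 ± 0.428%, and that of Wnt5b was 8.90 ± 0.0847% and 10.4 ± 1.23% (SD, n = 4 each). The shares of all 3 ligands were separated between the groups. These shares were chosen after the values were seen, were not tested, and depend on each other, since a lower share of the largest ligand raises the rest.

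The other tested ligands were present at 1.37 to 3.97 FPKM and none passed. Wnt4, a ligand known from kidney and gonad development, was 3.88, 4.48, 4.14 and 3.86 FPKM in control libraries and 3.52, 3.52, 4.65 and 3.75 FPKM in cKO libraries (log2 fold change -0.08, adjusted p = 0.533 from limma), and its highest value in each group again came from the library that stood apart. Wnt2b (0.18), Wnt2 (0.02), Wnt9a (0.06) and Wnt9b (0.23) had adjusted p between 0.143 and 0.911 from limma. Wnt16 had a difference of 0.26 (adjusted p = 0.186 from limma), the largest of the 27 genes that did not pass, and passed only without control library 3 (0.38, adjusted p = 0.0302) or with libraries weighted by their quality. The 10 remaining ligands were at most 0.21 FPKM in any library. Wnt1 was listed at 0.001 FPKM, the lowest value in the table, in all 8. Wnt7a was 0.0664 to 0.111 FPKM in control and 0.123 to 0.210 FPKM in cKO libraries. These groups did not overlap, but the gene was below the level tested. None of 9 lung and foregut markers reached that level either. Their sum was 0.509 to 0.664 FPKM in control and 0.858 to 1.15 FPKM in cKO libraries. Foxa2 was 0.001 FPKM in every control library and 0.107 to 0.301 FPKM in cKO libraries. Every other marker of that list overlapped between the groups. Some pairs of ligands that lie next to each other had unequal levels. On chromosome 11, Wnt9a had a mean of 1.77 FPKM and Wnt3a, 16178 bases away, 0.00515 FPKM. Also on chromosome 11, Wnt9b had 1.75 FPKM and Wnt3, 24353 bases away, 0.0212 FPKM. In other neighboring pairs both genes were low. Wnt6 had 0.0746 FPKM beside Wnt10a at 0.00666 FPKM, and Wnt10b had 0.101 FPKM beside Wnt1 at 0.001 FPKM.

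The co-receptors that pair with Frizzled in β-catenin signaling did not pass. Lrp5 was 13.1, 13.1, 9.66 and 12.2 FPKM in control libraries and 12.2, 11.1, 13.3 and 12.9 FPKM in cKO libraries (log2 fold change 0.04, adjusted p = 0.765 from limma). Lrp6 was 10.6, 10.5, 8.55 and 10.8 FPKM in control libraries and 10.8, 10.6, 11.7 and 11.7 FPKM in cKO libraries (0.14, adjusted p = 0.192 from limma). Control library 3 was the lowest of all 8 for both.

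Among secreted antagonists, Dkk3 was the gene that rose. Dkk3 belongs to the Dickkopf family by sequence, but it is not an established blocker of Lrp5 and Lrp6 as Dkk1 is. It was 37.1, 35.8, 35.8 and 32.7 FPKM in control libraries and 46.9, 49.9, 43.9 and 49.3 FPKM in cKO libraries. All cKO libraries were above all controls, and cKO library 3 was the lowest of the cKO libraries. The mean rose from 35.4 ± 1.86 to 47.5 ± 2.74 FPKM (SD, n = 4 each; log2 fold change 0.42, SE 0.06, limma adjusted p = 0.00113), the largest rise in FPKM among the Wnt genes that passed. Without control library 2 and cKO library 3 it was 0.46 (adjusted p = 0.00805). Within the label prefixes it was 0.36 (adjusted p = 0.0624) and 0.47 (adjusted p = 0.0301 from limma). The gene lies at chr7:112116019-112159057 on the minus strand and has 8 exons. Its neighbor Usp47 was also higher in cKO hearts (log2 fold change 0.16, adjusted p = 0.0124 from limma).

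The other Dkk genes were low. Dkk1, the canonical co-receptor antagonist, was 0.413, 0.704, 0.338 and 0.308 FPKM in control libraries and 0.142, 0.268, 1.05 and 0.213 FPKM in cKO libraries. Libraries 1, 2 and 4 of the cKO group were below every control and cKO library 3 was above every one, at 5.06 times the mean of the other cKO libraries. Dkk2 came closest to being tested, with a mean of 0.927 FPKM, and Dkk4 was at or near the lowest value in the table.

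Sfrp1, the most abundant of the 50 genes, was 49.4, 53.9, 53.3 and 47.5 FPKM in control libraries and 52.8, 55.1, 58.8 and 56.9 FPKM in cKO libraries. The groups overlapped and the difference of 0.13 did not pass (SE 0.06, limma adjusted p = 0.116). Of the 30 tested genes, Sfrp2 varied most within groups. It was 2.08, 7.57, 4.11 and 2.51 FPKM in control libraries and 2.25, 2.58, 7.39 and 5.12 FPKM in cKO libraries, so its highest values were those of control library 2 and cKO library 3. The standard error of its log2 difference (0.09) was 0.43, the largest of the 30 genes, and a change of that size could not be detected. Sfrp5 (-0.16, adjusted p = 0.382 from limma) did not pass, and Sfrp4 was 0.0604 to 0.216 FPKM and was not tested.

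None of the 4 tested genes that set receptor turnover passed. Rspo3, the main R-spondin here and a factor required for vascular development, was 10.3, 9.70, 11.3 and 7.82 FPKM in control libraries and 7.63, 9.42, 10.2 and 8.88 FPKM in cKO libraries (log2 fold change -0.11, SE 0.12, limma adjusted p = 0.528). Rspo1 differed by -0.01 (adjusted p = 0.942), and Rspo2 and Rspo4 were below the level tested. The receptor Lgr4 was 12.9, 12.2, 12.6 and 14.2 FPKM in control libraries and 12.97, 13.99, 13.5 and 14.4 FPKM in cKO libraries (0.08, adjusted p = 0.319 from limma). Its relative Lgr6 was far lower, at 0.231 to 0.371 FPKM in control and 0.382 to 0.470 FPKM in cKO libraries. These did not overlap, but Lgr6 was not tested. Lgr5, a receptor and a target of the β-catenin branch, stayed under 0.21 FPKM. Of the ligases that remove Frizzled from the surface, Znrf3 differed by -0.03 (adjusted p = 0.765 from limma), and Rnf43 was 0.235 to 0.530 FPKM and was not tested.

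Lef1 and Axin2 lie at the far end of the β-catenin branch. Axin2, a scaffold of the destruction complex whose transcription β-catenin induces, was 2.35, 2.60, 2.11 and 2.28 FPKM in control libraries and 1.99, 2.28, 2.80 and 2.60 FPKM in cKO libraries. The groups overlapped fully, and the log2 difference was 0.04 (SE 0.10, limma adjusted p = 0.811). Lef1, a DNA-binding partner of β-catenin, was 5.77, 5.62, 5.46 and 5.65 FPKM in control libraries and 4.11, 3.89, 5.95 and 5.08 FPKM in cKO libraries. Control libraries lay close together, whereas 3 cKO libraries were below them and cKO library 3 was above them. The difference of -0.24 did not pass (SE 0.11, limma adjusted p = 0.144). It was -0.34 without cKO library 3 and passed (SE 0.08, limma adjusted p = 0.0219), and was also -0.34 when control library 2 was left out as well, where it missed the threshold with 1 library fewer (limma adjusted p = 0.0557).

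**Figure D4:**
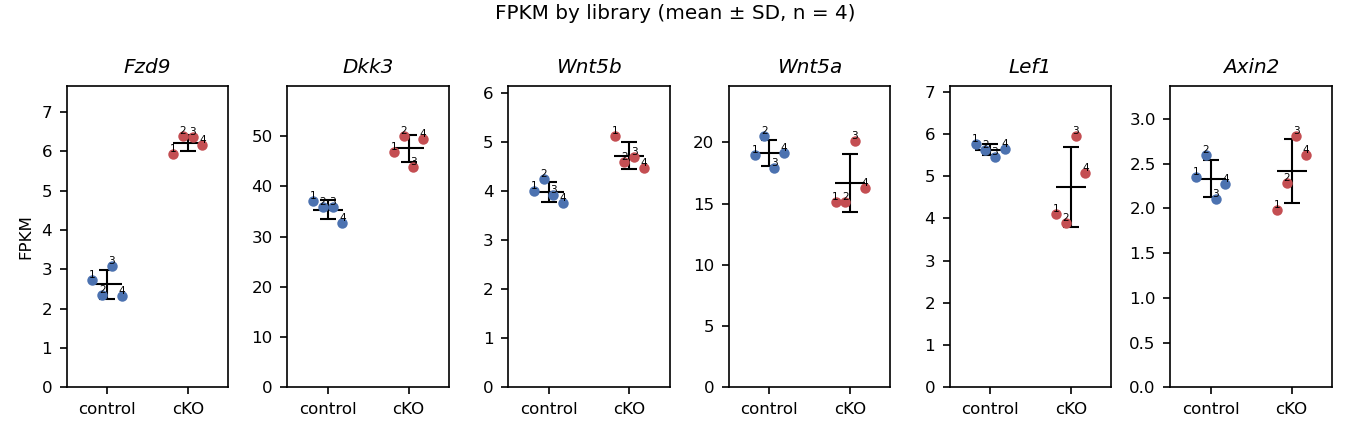
FPKM by library for the 3 genes that passed (Fzd9, Dkk3, Wnt5b) and for Wnt5a, Lef1 and Axin2, with each point numbered by library and bars for the mean ± SD (n = 4 each). Groups were separate for the first 3, and for Wnt5a and Lef1 cKO library 3 stood above the other cKO libraries at 20.1 and 5.95 FPKM.

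Wnt5a and Lef1 were examples of a wider pattern in single libraries. cKO library 3 had the highest value of the 4 cKO libraries in 21 of the 30 tested genes (70%), against 28.2% of all tested genes. Control library 2 was the highest control in 14 of 30 (46.7%), against 15.9%. Over all tested genes, control library 3 was the highest control most often (46.6%, against 23.3% of the 30), which leaves smaller shares to the other controls. Without control library 3, 4951 genes were called in the whole comparison, against 3879 with it. Control library 2 and cKO library 3 were both highest in 12 of 30 (40%), against 6.78%. Among these were Sfrp2, Fzd7, Fzd1, Wnt5a, Wnt4 and Axin2. In the same libraries Frzb, an Sfrp-type antagonist outside the list, was 3.32 and 4.81 FPKM, and the levels of Rgs5 and Isl1 given above were raised. The excess of cKO library 3 over the mean of the other cKO libraries was 2.43 times for Lgr5, 2.23 for Sfrp2, 1.62 for Fzd7 and 1.58 for Rnf43. The part of tissue content in these values was not tested. Without both libraries 2 Wnt genes were higher (Fzd9 and Dkk3) and 1 was lower (Wnt5a).

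**Figure D5:**
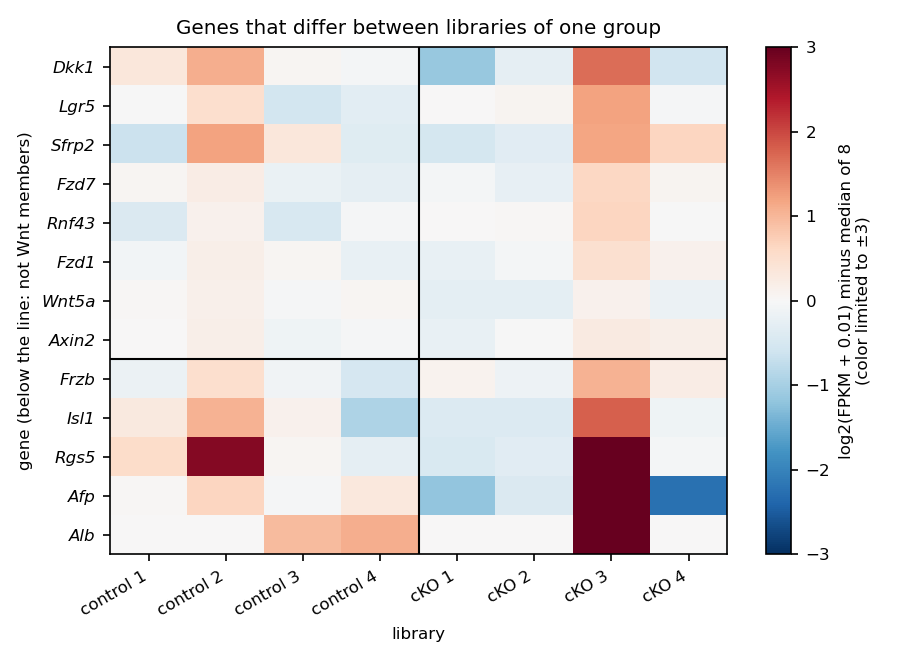
Each gene's log2(FPKM + 0.01) in each library minus its median over the 8 libraries (color, limited to ±3), with 8 Wnt genes above the horizontal line and 5 other genes below it. The 8 Wnt genes shown are all ones in which control library 2 and cKO library 3 were each the highest of their group. The figure therefore illustrates the pattern and does not show how common it is. These libraries were also raised in Rgs5, Isl1 and Frzb, and Afp and Alb were high in cKO library 3.

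The rest of the pathway was taken from 7 lists with 77 genes, of which 76 were found and 64 tested. In cKO hearts 7 were higher and 7 lower (10.9% each, beside 15.9% and 14.9% of all tested genes), 50 did not pass, and the median log2 difference was 0.01. In the list of ligand processing, Porcn, the enzyme that acylates Wnt proteins for secretion, was lower. It was 2.08, 1.72, 1.85 and 1.92 FPKM in control libraries and 1.13, 1.34, 1.49 and 1.20 FPKM in cKO libraries, without overlap (log2 fold change -0.42, SE 0.09, limma adjusted p = 0.00813). Porcn lies on chromosome X, and Xist was at most 0.0741 FPKM in any library, so all 8 had the low Xist level of male hearts. Wls, which carries the acylated ligand to the surface, differed by 0.11 (adjusted p = 0.18), and Notum, which removes the acyl group, by 0.16 (adjusted p = 0.229 from limma).

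The counts of called genes in the next lists stand beside 15.9% of all tested genes called higher and 14.9% called lower. Of 12 other antagonists 6 were tested. Apcdd1, a membrane-bound inhibitor of Wnt signaling, was higher (log2 fold change 0.22, adjusted p = 0.0161 from limma) and Igfbp4, an IGF-binding protein that also inhibits Wnt signaling, was lower (-0.18, adjusted p = 0.0324). Among 9 other receptors 1 passed. This was Mcc (0.26, adjusted p = 0.00974 from limma), an intracellular scaffold protein rather than a receptor. Among 12 nuclear partners, the β-catenin coactivator Bcl9l was higher (0.27, adjusted p = 0.0132 from limma). The corepressor Tle4 (-0.34, adjusted p = 0.0135) and Ctnnbip1, which keeps β-catenin from Tcf factors, (-0.22, adjusted p = 0.0298 from limma) were lower. Of 15 tested genes of the cytoplasmic relay, 1 passed, the kinase Csnk1e (-0.15), at the very edge of the threshold; the call was lost without any 1 of control libraries 1, 2 and 4 or cKO libraries 1, 2 and 4 (limma adjusted p 0.0655 to 0.139). The differences kept their direction, between -0.13 and -0.16. Calls of 2 other genes were lost in the same way. Igfbp4 no longer passed without control library 2 or 4 or cKO library 1, 2 or 4 (log2 fold change -0.14 to -0.19, limma adjusted p 0.0627 to 0.0901), and Ctnnbip1 without control library 2 or cKO library 2 or 4 (-0.18 to -0.23, adjusted p 0.0603 to 0.0859). β-catenin itself (Ctnnb1) differed by -0.10 (adjusted p = 0.181 from limma).

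Of 7 tested target genes, Myc (0.26, adjusted p = 0.00803 from limma) and the feedback antagonist Nkd2 (0.22, adjusted p = 0.0476) were higher and none was lower. This share of 28.6% stands beside 15.9% of all tested genes called higher and 30.7% called in either direction. The Nkd2 call was lost without any 1 library other than control 3 or cKO 1 (log2 fold change 0.18 to 0.23, limma adjusted p 0.0828 to 0.121). Of 12 tested genes of planar cell polarity and β-catenin-independent relay, 4 passed, 2 in each direction, a share near the 30.7% of all tested genes. Daam2, a formin that binds Dishevelled, rose from 6.09 to 7.88 FPKM in control libraries to 9.03 to 10.4 FPKM in cKO libraries (log2 fold change 0.45, SE 0.08, limma adjusted p = 0.00403). The polarity cadherins Celsr2 and Celsr1 passed in opposite directions. Celsr2 was 1.49, 1.47, 0.926 and 1.20 FPKM in control libraries and 2.34, 1.92, 2.10 and 2.13 FPKM in cKO libraries (0.58, SE 0.12, limma adjusted p = 0.007). Celsr1 was 3.89, 3.20, 2.51 and 3.25 FPKM in control libraries and 2.39, 1.88, 2.14 and 2.15 FPKM in cKO libraries (-0.48, SE 0.11, limma adjusted p = 0.013). Control library 3 was the lowest control for both. Fuz, a polarity effector needed for cilia, was lower (-0.31, adjusted p = 0.00862 from limma). Without control library 2 and cKO library 3, Celsr1, Myc, Bcl9l, Ctnnbip1, Igfbp4, Nkd2 and Csnk1e no longer passed (limma adjusted p 0.0546 to 0.169), with 6 libraries in the fit. Their log2 differences stayed close to those with all libraries, at -0.48 for Celsr1, 0.22 for Myc, 0.28 for Bcl9l and -0.24 for Ctnnbip1. They were -0.20 for Igfbp4, 0.20 for Nkd2 and -0.16 for Csnk1e. With all libraries kept but haemoglobin genes removed, Bcl9l, Nkd2, Igfbp4 and Csnk1e also lost their calls (limma adjusted p 0.0536 to 0.161). Celsr1, Myc and Ctnnbip1 kept theirs (limma adjusted p 0.00663 to 0.0376).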

How the data were processed

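Stranded poly(A) RNA libraries of whole E11.5 hearts (4 cKO and 4 control) were sequenced. TopHat2 and Bowtie2 were the authors' aligners (mm10), and Cuffdiff2 their test. Versions and gene annotation are not given in the sources used here. The deposited table holds FPKM per library as the authors computed them, normalized for transcript length and mapped reads, and a p-value column of the authors' own comparison that was not used. Text codes for low data or failed estimates fill 1.32% of cells, and the lowest value is 0.001. Read counts were not used here, so precision comes from the spread between libraries. The smallest FPKM steps at short loci gave the relative depth, and FPKM sums ranged from 538581 to 637528.

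Groups were taken from the sample labels. Numbers were present in every library for 23521 entries. Those averaging 1 FPKM or more (12629) were compared on log2(FPKM + 0.5) with limma 3.58.1 in R 4.3.3 (statmod 1.5.0), with 1 mean per group and trended empirical Bayes variances. Tests were two-sided, with Benjamini-Hochberg adjustment over all entries tested and a threshold of 0.05. Fold changes are on the log2(FPKM + 0.5) scale, which understates the change of low genes. The fit was first tested on simulated data. Every gene of the group was accounted for. Called genes, and tested ones averaging 5 FPKM or more, were given with their 8 values. Other genes given with all values (Wnt4, Sfrp2, Dkk1 and Axin2) and the neighbors of called genes were chosen after values were seen. Of each list of other pathway genes, called genes were named, up to 4 in each direction. The genes and lists were chosen with earlier results of these data known. Promoter windows came from RefSeq. Alternatives were other pseudocounts (0.1 and 1), filters, scalings, variance models, library weights, removal of haemoglobin genes, a replicate block, the label prefix and leaving out each library; leaving out both libraries that stood apart was added after seeing the data. The sample labels do not state whether libraries with the same replicate number shared a litter, and the main fit did not pair them. The prefix was read from the descriptions (control 1 and 2 with cKO 1, and the other 5 libraries), although all 8 value columns carry the same one. Figures were drawn with Python 3.11.15 and matplotlib 3.10.9.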

Additional observations from a re-analysis of the deposited data

Results flagged for a closer look

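Single libraries that lay far from the other 3, measured against the range of their group, were flagged in 7 of 114 groups of 4. Chance gives about 1 in 20. In cKO library 3, 3 genes stood far above the other cKO libraries: Dkk1 at 1.05 FPKM, Lgr5 at 0.206 FPKM and Rnf43 at 0.530 FPKM. All 3 were below the level tested, and this library also held the raised Rgs5, Isl1 and Afp. Among control libraries, Wnt11 was lower in library 4 (7.04 FPKM, against 8.01 to 8.09 FPKM in the others). Lrp6 was lower in control library 3 (8.55 FPKM, against 10.5 to 10.8 FPKM). Wnt7b was lower in control library 2 (0.0148 FPKM, against 0.0389 to 0.0405 FPKM). Bcl9l was lower in cKO library 2 (10.1 FPKM) than in the other cKO libraries (11.4 to 11.7 FPKM).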

How the results depend on the processing

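The log2 differences of Fzd9, Dkk3 and Wnt5b stayed above 0 under every alternative that tested them, but not every call was kept. The Wnt5b call was lost within the larger prefix (adjusted p = 0.0739 from limma). It was also lost without both libraries that stood apart (adjusted p = 0.0542 from limma). Of 967 values of 45 genes under 22 alternatives, 884 kept their side of the threshold, 74 fell below it and 9 newly passed. Reversals of called values numbered 0. The 884 include 41 values of 15 genes that changed sign where neither value was called. The 3 Wnt genes called higher became 1 at a mean of at least 5 FPKM, which does not test Fzd9 or Wnt5b, 7 with library weights and 0 within the prefix that has 1 cKO library. They ranged from 3 to 4 when 1 library was left out. The count of lower Wnt genes (0) became 1 with library weights, 1 without both libraries that stood apart, and 0 to 2 when 1 library was left out, with 2 (Wnt5a and Lef1) without cKO replicate 3. Of other pathway genes, the 7 higher became 12 with library weights, 0 within the smaller prefix and 4 without both libraries. The 7 lower became 3 at 5 FPKM, 12 after quantile normalization, 17 with library weights, 0 within each prefix, 3 without both libraries and 4 to 12 when 1 library was left out, the low end without control 2, cKO 2 or cKO 4 and the high end without control 3. Over all genes, 3879 calls became 6582 with library weights, 64 and 1465 within the prefixes and 2142 without both libraries. The fits within the prefixes also hold fewer libraries, and the cause of these changes was not tested.

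With a replicate block, 3443 genes were called, with 3 Wnt genes higher and 0 lower (Fzd9 adjusted p = 0.00191, Dkk3 0.00850, Wnt5b 0.0359 from limma). Of the other pathway genes 7 were higher, with Cd44 gained and Nkd2 lost, and 5 lower, with Igfbp4 and Csnk1e lost. Correlations of same-numbered libraries were 0.127, 0.158, -0.0116 and 0.0128. Those of differently numbered libraries ran from -0.123 to 0.102. Whether the libraries were paired by litter was not tested. The low level of 20 of the 50 genes limits what these libraries show about them.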
